A study of Mus musculus with 6 samples.

Results

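The mouse mitochondrial genome is a small circle of DNA that is read separately from the nuclear chromosomes, and its 37 genes were followed here in activated B cells with and without Prmt1, the main arginine methyltransferase that makes asymmetric dimethylarginine. Its members were taken by name, as every gene of the exon count table whose symbol begins with mt-, and they made 37 of 39017 genes. They comprised 13 mRNA genes, 2 rRNA genes and 22 tRNA genes. All 13 mRNA genes, both rRNA genes and 19 of the 22 tRNA genes had enough counts to be tested, which gave 34 members among 18268 genes tested. The other 3 tRNA genes, mt-Tf, mt-Tv and mt-Td, had mean counts of 2.17, 3.67 and 4.33 per library and are left out of every count below.

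The libraries came from induced germinal center B cells (iGBs), which are spleen B cells of C57BL6/J mice grown on irradiated 40LB fibroblasts that supply CD40L and BAFF, with IL-4, for 3.5 days. Each group held 3 mice, 2 females and 1 male. Control mice carried Cγ1-cre (Cg1-cre in the labels), and Prmt1-null mice carried Cg1-cre with loxP-flanked Prmt1 alleles (Prmt1f/f), so that both groups expressed the recombinase, which is driven from the immunoglobulin γ1 constant region locus and is active only once B cells have been activated. The 40LB cells, which are also of mouse origin, were removed with an antibody to H2Kd before RNA was made. Total RNA was purified on silica columns, and rRNA was depleted before stranded libraries were prepared. Libraries are named below by group and by the replicate number in their labels, as in Control 1 or Prmt1-null 3, and the labels do not say whether a number marks a shared day, litter or preparation.

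Both strands of the mitochondrial genome are transcribed into long precursors in which tRNAs lie between most of the other genes. Nuclear-encoded enzymes cut the tRNAs out and so release the mRNAs and rRNAs. The mRNAs encode core subunits of complexes I, III, IV and V of oxidative phosphorylation, and the rRNAs and tRNAs serve their translation inside the organelle. B cells enlarge and remodel their mitochondria when they are activated. In the annotation, 28 of the members lie on the plus strand and 9 on the minus strand, and the latter are mt-Nd6 and 8 tRNA genes.

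The sequences of 7 tRNA genes are shown because the results turn on them. Each is written 5′ to 3′ on its own strand, with the anticodon in capitals, as in GENCODE M21 transcripts of build GRCm38 (mm10). The first 4 are adjacent genes of the minus strand, between mt-Tw and mt-Co1, and hold both members called by genotype.
mt-Ta (alanine, chrM:5018-5086, minus strand): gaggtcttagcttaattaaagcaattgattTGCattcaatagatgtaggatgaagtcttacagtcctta
mt-Tn (asparagine, chrM:5089-5159, minus strand): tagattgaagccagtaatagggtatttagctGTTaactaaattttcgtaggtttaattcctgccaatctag
mt-Tc (cysteine, chrM:5192-5257, minus strand): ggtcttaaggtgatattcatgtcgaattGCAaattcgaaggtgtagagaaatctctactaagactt
mt-Ty (tyrosine, chrM:5260-5326, minus strand): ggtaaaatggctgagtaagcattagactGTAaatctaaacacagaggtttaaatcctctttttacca
The fifth, mt-Tw, is the plus-strand gene that closes the same cluster, and the last 2 are the tRNA genes that differed by replicate number.
mt-Tw (tryptophan, chrM:4950-5016, plus strand): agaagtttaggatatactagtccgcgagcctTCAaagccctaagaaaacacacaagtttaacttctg
mt-Te (glutamate, chrM:14071-14139, minus strand): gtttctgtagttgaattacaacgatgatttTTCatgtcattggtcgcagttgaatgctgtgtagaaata
mt-Tl1 (leucine, chrM:2676-2750, plus strand): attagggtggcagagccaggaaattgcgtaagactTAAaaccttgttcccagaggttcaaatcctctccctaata

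Library totals ran from 45343250 to 62774232 counts. Levels are given as normalized CPM, which are counts relative to the total on tested genes of each library, with trimmed-mean factors between libraries. Prmt1 was at 71.5, 70.8 and 87.2 normalized CPM in Control 1 to 3 and at 31.5, 26.6 and 26.6 in Prmt1-null 1 to 3, a log2 fold change of −1.44 (SE 0.095, adjusted p = 1.11e-05 by edgeR's quasi-likelihood test). The 6 B cell markers summed to 5972 to 6652 normalized CPM. The 6 markers of germinal centre-like B cells summed to 587 to 626 in Control and 607 to 671 in Prmt1-null libraries, and 1 of them, Mybl1, was called lower in Prmt1-null libraries (25.2 ± 1.43 against 17.8 ± 2.21, SD, log2 fold change −0.50, adjusted p = 0.0456 by edgeR). Feeder fibroblast markers summed to 29.3 to 32.6 in Control and 31.1 to 39.9 in Prmt1-null libraries, with 1 of 10 at 0 in all libraries. T cell markers summed to 1.19 to 3.01, and myeloid markers to 39.2 to 46.5, of which Emr1, a macrophage marker, was called higher in Prmt1-null libraries (6.36 ± 0.94 against 10.6 ± 1.16, SD, log2 fold change 0.73, adjusted p = 0.0319 by edgeR) and none of the other 5 was called. The part of Mybl1 and Emr1 in the mitochondrial levels was not tested. The 3 mice of a group are the replicates.

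Mitochondrial genes took 3.51, 2.74 and 1.96% of all counts in Control 1, 2 and 3 and 3.26, 2.93 and 1.95% in Prmt1-null 1, 2 and 3. The group means, 2.74% ± 0.774 and 2.71% ± 0.677 (SD, n = 3), were almost equal, while libraries of 1 genotype differed from each other by much more. In both groups the library numbered 3 had the lowest share, at 0.559 times that of number 1 in Control and 0.600 times in Prmt1-null. In bulk libraries, fewer cells with many mitochondria and less mitochondrial RNA per cell cannot be told apart.

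The 13 mRNA genes held 96.5 to 97.6% of the mitochondrial counts of a library. The 2 rRNA genes took 0.0291, 0.0402 and 0.0238% of all counts in Control and 0.0333, 0.0223 and 0.0295% in Prmt1-null libraries, with no common order by number. The tRNA genes took 0.0583, 0.0492 and 0.0436% in Control and 0.0473, 0.0470 and 0.0398% in Prmt1-null libraries. Both libraries numbered 3 were therefore lowest for mRNAs and tRNAs, but not for rRNAs. The rRNA depletion step bears on the rRNA level, and silica columns recover RNA of tRNA size poorly, so the levels of these classes cannot be set against those of mRNAs in the cell.

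**Figure D1:**
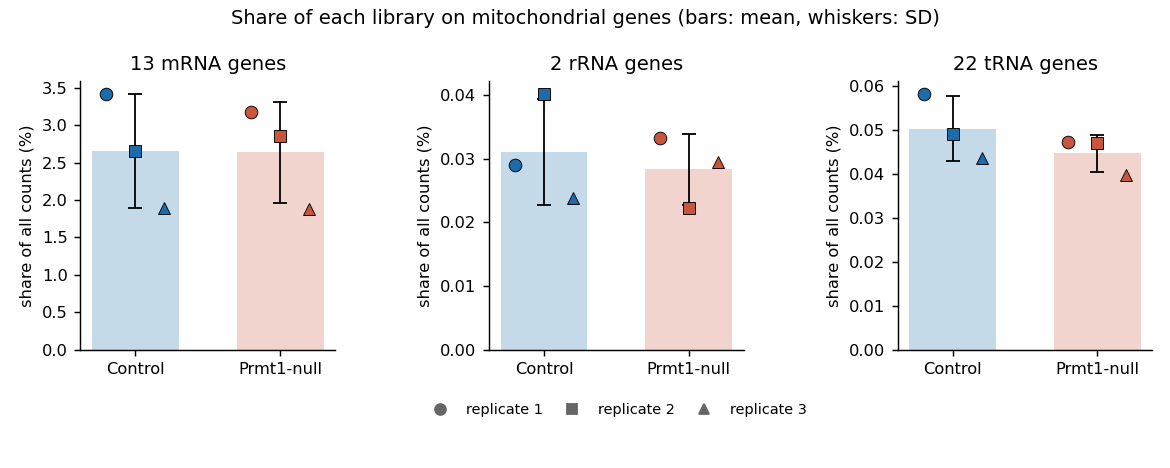
Share of all counts (%) on the 13 mRNA, 2 rRNA and 22 tRNA genes of the mitochondrial genome in each library, with bars for the group mean and whiskers for the SD (n = 3) and a marker shape for each replicate number. For mRNAs the group means of 2.65 and 2.64% lie level, and the triangles for number 3 lie lowest at 1.89% in both groups.

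Complex I, NADH dehydrogenase, takes 7 of its subunits from mitochondrial DNA. mt-Nd1, in the membrane arm near the site of ubiquinone reduction, was at 3503, 2732 and 2113 normalized CPM in Control 1, 2 and 3 and at 3211, 3159 and 2099 in Prmt1-null 1, 2 and 3. mt-Nd2, a proton-pumping subunit, was at 1979, 1510 and 1080 in Control and 1805, 1721 and 1166 in Prmt1-null libraries. Both genes were lowest in the libraries numbered 3, and the genotypes overlapped. mt-Nd4, another pumping subunit, was at 5207, 3737 and 2423 in Control and 4674, 4047 and 2476 in Prmt1-null libraries. mt-Nd4l, a small membrane subunit whose gene overlaps the start of mt-Nd4, was at 877, 652 and 446 in Control and 838, 731 and 419 in Prmt1-null libraries. mt-Nd5, the most distal pumping subunit, was at 5693, 4124 and 2680 in Control and 4874, 4334 and 2526 in Prmt1-null libraries. In these 3 genes the order was the same in both genotypes, with number 1 highest and number 3 lowest. mt-Nd6, the only mRNA gene of the minus strand, was at 1855, 1269 and 824 in Control and 1470, 1312 and 812 in Prmt1-null libraries. mt-Nd3, a short subunit, was at 693, 623 and 602 in Control and 626, 681 and 728 in Prmt1-null libraries. It was the one mRNA gene whose libraries numbered 3 did not lie under the other 4, since Prmt1-null 3 was the highest of all 6.

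Complex III takes only cytochrome b from mitochondrial DNA. mt-Cytb was at 2031, 1747 and 1346 in Control and 2414, 2103 and 1368 in Prmt1-null libraries. Both libraries numbered 3 again lay under the other 4, and the Prmt1-null mean was above that of Control by 0.20 on the log2 scale (SE 0.17, adjusted p = 0.663).

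Complex IV, cytochrome c oxidase, takes its 3 catalytic core subunits from mitochondrial DNA. mt-Co1, which holds the heme and copper site where oxygen is reduced, had the most counts of any member, at 10234, 8539 and 6440 in Control and 10700, 9554 and 6002 in Prmt1-null libraries. mt-Co2, which takes electrons from cytochrome c, was at 208, 150 and 101 in Control and 164, 121 and 95.7 in Prmt1-null libraries. mt-Co3 was at 424, 329 and 279 in Control and 325, 295 and 280 in Prmt1-null libraries. Number 3 was lowest for all 3 genes, but the gap was small for mt-Co3, where Prmt1-null 2 and 3 were close.

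Complex V, ATP synthase, takes 2 membrane subunits from mitochondrial DNA, read from overlapping frames. mt-Atp6, part of the proton channel, was at 987, 720 and 509 in Control and 899, 617 and 485 in Prmt1-null libraries. mt-Atp8 was at 288, 210 and 139 in Control and 257, 186 and 157 in Prmt1-null libraries. Both were lowest in the libraries numbered 3.

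**Figure D2:**
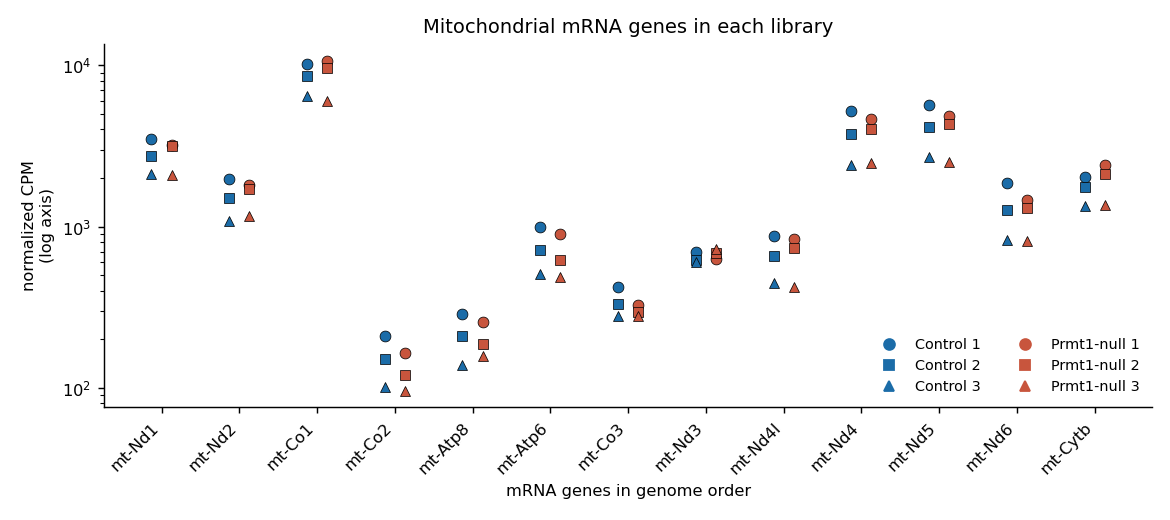
Normalized CPM (log axis) of the 13 mitochondrial mRNA genes in genome order, one marker per library, blue for Control and red for Prmt1-null, with a shape for each replicate number. For 12 of the 13 genes both triangles, the libraries numbered 3, lie under the other 4 libraries, and mt-Nd3 is the exception.

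The ribosomal RNAs, the scaffolds of the mitochondrial ribosome, did not follow the mRNAs. mt-Rnr1, the small subunit rRNA, was at 95.7, 125 and 81.2 in Control and 122, 74.3 and 94.5 in Prmt1-null libraries. mt-Rnr2, the large subunit rRNA, was at 193, 275 and 158 in Control and 216, 151 and 197 in Prmt1-null libraries. Both were highest in Control 2 and lowest in Prmt1-null 2, and the genotypes overlapped. The log2 fold changes were −0.05 (SE 0.16, adjusted p = 0.916) for mt-Rnr1 and −0.15 (SE 0.16, adjusted p = 0.752) for mt-Rnr2.

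Per 1000 bases of gene, mt-Co1 was the most abundant mRNA, at 5552 normalized CPM over the 6 libraries. mt-Nd1, mt-Nd4, mt-Nd6, mt-Nd4l and mt-Nd5 followed at 2929, 2729, 2422, 2224 and 2214 on the same scale, and differ by less than the spread between libraries. The strand setting of the counting is not given, so reads of the minus-strand gene mt-Nd6 cannot be told apart from the plus-strand precursor. mt-Nd3, mt-Cytb and mt-Nd2 were at 1893, 1604 and 1487, mt-Atp6 and mt-Atp8 at 1032 and 1011, mt-Co3 at 411 and mt-Co2 at 205. The plus-strand neighbors mt-Co1 and mt-Co2 thus differed by far more per length than any mRNA gene differed between libraries. mt-Rnr1 and mt-Rnr2 were at 103 and 125 per 1000 bases.

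Several of these levels share reads with copies in the nuclear genome. The authors counted alignments to at most 2 places, so a read with 1 equal match elsewhere could be counted at either place. Every 50-base stretch of mt-Co2 occurs unchanged in another GENCODE transcript, and the share of such stretches was 99.9% for mt-Co3, 99.5% for mt-Atp6, 98.8% for mt-Nd4l, 98.0% for mt-Nd3, 62.2% for mt-Nd4 and 51.1% for mt-Co1. It was 0.0% for mt-Nd1, mt-Nd6, mt-Cytb, mt-Atp8, mt-Rnr1 and every tRNA gene, 8.2% for mt-Nd2, 7.6% for mt-Nd5 and 1.0% for mt-Rnr2. On the scale per length above, the highly shared mt-Co2, mt-Co3, mt-Atp6, mt-Nd3 and mt-Nd4l were at 205, 411, 1032, 1893 and 2224. The mRNA genes with a share of 0.0%, mt-Atp8, mt-Cytb, mt-Nd6 and mt-Nd1, were at 1011, 1604, 2422 and 2929. The part of shared reads in these levels was not tested, and the values of the highly shared genes are uncertain to that extent.

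Among nuclear copies that are rows of the count table, Gm13340, a copy of mt-Co1 on chromosome 2, had the highest level. It was at 2131, 1643 and 1148 in Control and 2056, 1528 and 1184 in Prmt1-null libraries. Its neighbor Gm13341, a copy of mt-Co2, was at 699, 484 and 315 in Control and 558, 433 and 340 in Prmt1-null libraries. Gm10222, a copy of mt-Nd4l on chromosome 1, was at 64.3, 44.5 and 38.3 in Control and 81.3, 58.6 and 46.7 in Prmt1-null libraries. The rows named Gm13340 and Gm13341 therefore also had their lowest libraries at number 3, as the mRNA genes did. Gm11512 (mt-Co1), Gm13339 (mt-Nd2), Gm4076 and Gm11407 (both mt-Nd5) had Control means of 36.1, 37.2, 31.6 and 13.5, and Gm20594 (mt-Rnr2) had 1.24. All 8 together took 0.158 to 0.307% of the counts of a library.

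The first 150 bases of mt-Co2 and of Gm13341 (chromosome 2, 22587291 to 22587962, minus strand) show how close such a copy can be. Both are written 5′ to 3′ on their own strand, and capitals mark the 2 bases that differ.
mt-Co2 (chrM:7013-7696, plus strand): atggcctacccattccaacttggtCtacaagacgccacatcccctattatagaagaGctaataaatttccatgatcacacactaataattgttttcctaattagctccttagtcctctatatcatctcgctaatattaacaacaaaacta
Gm13341: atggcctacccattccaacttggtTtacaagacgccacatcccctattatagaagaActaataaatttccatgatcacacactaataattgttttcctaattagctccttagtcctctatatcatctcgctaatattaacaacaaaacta

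The first comparison asked how the loss of Prmt1 was reflected in the members. None of the 34 members was called higher in Prmt1-null libraries and 2 were called lower, the neighboring tRNA genes mt-Tn and mt-Tc. Over all genes tested, 0.591% were called higher and 0.602% lower at an adjusted p under 0.05 by edgeR's quasi-likelihood test. None of the 13 mRNA genes and neither rRNA gene was called, and none had an unadjusted p under 0.05 by edgeR. DESeq2 also called no mRNA or rRNA gene. The median log2 fold change of the mRNA genes was −0.02, with a range of −0.27 for mt-Co2 to 0.20 for mt-Cytb, beside a median of −0.00082 over all genes tested. With 1 library left out, the median of the mRNA genes turned to 0.20 without Control 1 and 0.14 without Prmt1-null 3, and was −0.26 without Control 3, −0.21 without Prmt1-null 1, −0.06 without Prmt1-null 2 and −0.03 without Control 2. Standard errors of the mRNA genes ran from 0.074 for mt-Nd3 to 0.23 for mt-Nd6, and in every mRNA gene the genotypes overlapped.

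**Figure D3:**
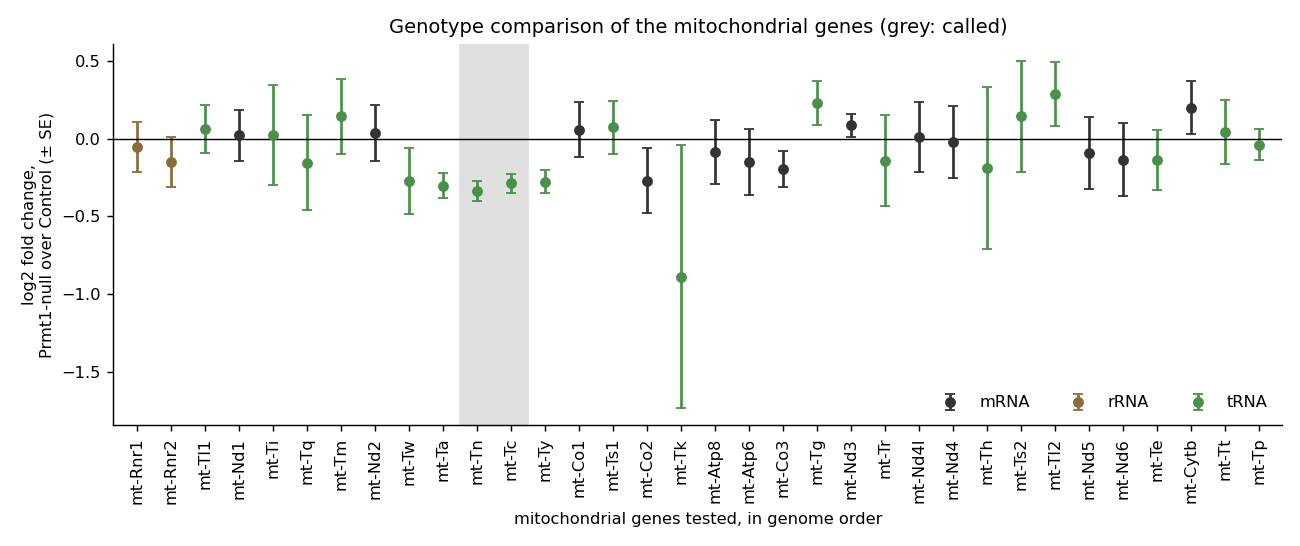
Log2 fold change of Prmt1-null over Control with its standard error for the 34 tested mitochondrial genes in genome order, colored by class, with called genes on grey. The run from mt-Ta to mt-Ty lies under 0 with short error bars, between −0.34 and −0.28, and the mRNA genes lie between −0.27 and 0.20.

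In the cluster of minus-strand tRNA genes, mt-Tn was at 72.0, 65.0 and 66.4 normalized CPM in Control 1, 2 and 3 and at 55.1, 52.5 and 53.6 in Prmt1-null 1, 2 and 3. mt-Tc was at 83.2, 78.5 and 79.0 in Control and 64.3, 68.9 and 63.8 in Prmt1-null libraries. Each Prmt1-null library of both genes lay under each Control library. The log2 fold change of mt-Tn was −0.34 (SE 0.065, adjusted p = 0.0268), a ratio of 0.792. That of mt-Tc was −0.29 (SE 0.061, adjusted p = 0.0387), a ratio of 0.819.

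The flanking genes of the cluster had like values without passing the threshold. mt-Ta was at 41.3, 36.3 and 37.6 in Control and 31.6, 30.2 and 31.5 in Prmt1-null libraries, with a log2 fold change of −0.30 (SE 0.082, adjusted p = 0.0978). mt-Ty was at 59.7, 53.1 and 54.3 in Control and 44.3, 48.9 and 44.8 in Prmt1-null libraries, with −0.28 (SE 0.073, adjusted p = 0.0908). For both genes the groups did not overlap, which made 4 of the 34 members with all Prmt1-null libraries under all Control libraries, a share near the 9.92% of all genes tested. DESeq2 called all 4 genes of the cluster lower, beside 4.08% of all genes called in either direction. mt-Tw, on the other strand at the end of the cluster, was at 16.5, 9.58 and 7.85 in Control and 9.99, 8.69 and 9.34 in Prmt1-null libraries, with a log2 fold change of −0.27 (SE 0.21, adjusted p = 0.63). That fold change was near those of the cluster, with a larger error, and its groups overlapped.

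With each library left out in turn, the adjusted p of mt-Tn ran from 0.0218 to 0.172 and that of mt-Tc from 0.0344 to 0.184, and both passed only without Control 3. Over all genes, these fits called from 31 genes to 350, the latter without Control 3, beside 218 with all libraries. The fold change of mt-Tn stayed between −0.37 and −0.29 in these fits, and that of mt-Tc between −0.32 and −0.26. Neither source used here gives the strand setting of the counting, so reads of the minus-strand tRNAs cannot be told apart from reads of the plus-strand precursor that runs through the same bases. Whether the reads came from mature tRNAs or from precursors was not tested. Replication-dependent histone genes had log2 fold changes on the same side as the cluster, with a median of −0.20. They were under 0 in 65 of the 69 tested, beside 9154 of all 18268 genes tested. By edgeR, 5 of them were called lower in Prmt1-null libraries, beside 0.602% of all genes tested. Of the 9 tested genes listed for residual rRNA and abundant small RNAs, edgeR called none by genotype and 1 had an unadjusted p under 0.05. This was Gm26917, at 12515, 12933 and 16253 in Control and 17596, 17873 and 16738 in Prmt1-null libraries (log2 fold change 0.32, adjusted p = 0.0634 by edgeR), higher in each Prmt1-null library than in each Control library. The part of these genes in the tRNA levels was not tested.

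**Figure D4:**
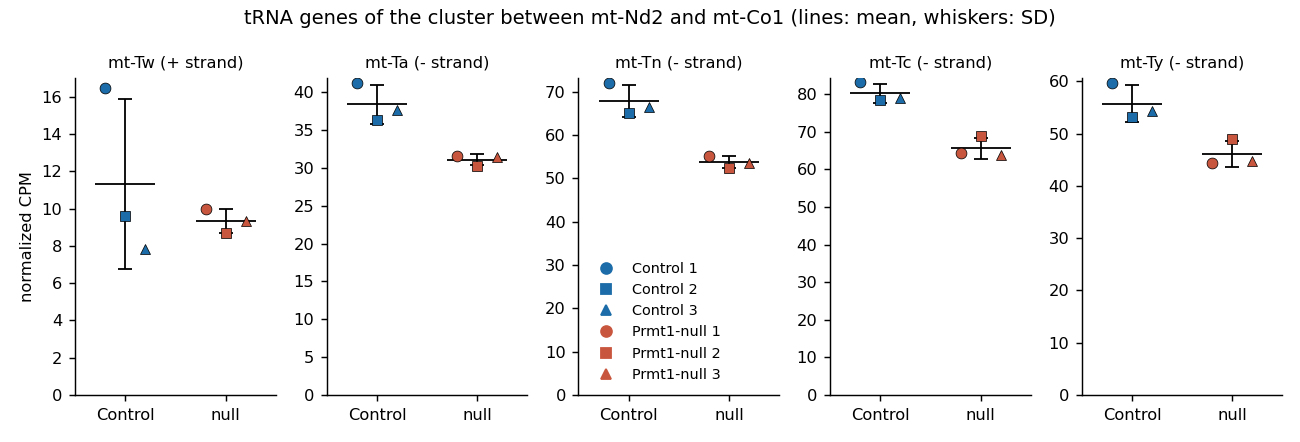
Normalized CPM of the 5 tRNA genes between mt-Nd2 and mt-Co1, with lines for the group mean, whiskers for the SD (n = 3) and a marker shape for each replicate number. In the 4 minus-strand genes all Prmt1-null libraries lie under all Control libraries, by about the same ratio of 0.792 to 0.826. In the plus-strand gene mt-Tw the groups overlap, at a ratio of 0.828, and only Control 1 lies above the Prmt1-null libraries.

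The 15 other tested tRNA genes ranged widely in level, and none was called by genotype. Their log2 fold change was under 0 in 7 of 15, with a median of 0.02. On the minus strand outside the cluster 3 of 4 were under 0, with a median of −0.09, and on the plus strand 4 of 11, with a median of 0.04. Over all 19 tested tRNA genes, the cluster included, the median was −0.14, and it turned to 0.10 without Control 1 and to 0.011 without Prmt1-null 3. The tRNA genes with the most counts, mt-Te, mt-Tc, mt-Tl1 and mt-Tn, had mean counts of 5656, 4024, 3895 and 3342 per library. Those with the fewest, mt-Tk, mt-Th, mt-Ts2 and mt-Tq, had 15.8, 30.7, 60.3 and 84.2, with adjusted p of 0.712, 0.91, 0.902 and 0.872 for genotype by edgeR. The strands were not compared by a test.

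The second comparison asked how the members varied with the replicate number, with genotype in the same fit. An F test with 2 degrees of freedom called 24 genes, 0.131% of all genes tested, and 13 of the 24 were mitochondrial genes. These were 11 of the 13 mRNA genes, all but mt-Co3 and mt-Nd3, and the tRNA genes mt-Te and mt-Tl1. Another 4 of the 24 were the nuclear copies Gm13340, Gm13341, Gm10222 and Gm11512. In 21 of the 34 members, 12 of them mRNA genes, both libraries numbered 3 lay under the other 4 libraries, beside 5.36% of all genes tested. Members are cut from shared precursors, so these calls and counts are not independent of each other. Over all genes, deviations from the group means correlated at −0.0747, 0.0445 and −0.0775 for same-numbered libraries, so the numbers did not pair the libraries.

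Among the called mitochondrial genes, 4 of complex I had the lowest values in number 3 relative to number 1. The log2 difference was −1.02 for mt-Nd5 and mt-Nd6, −1.01 for mt-Nd4 and −0.99 for mt-Nd4l, with adjusted p of 0.000273, 0.000986, 0.000273 and 0.000944 by edgeR. Close to these were mt-Atp6 at −0.92, mt-Co2 at −0.91 and mt-Atp8 at −0.88, with adjusted p of 0.000944, 0.000944 and 0.00301 by edgeR. mt-Nd2 and mt-Co1 were at −0.75, mt-Cytb at −0.70 and mt-Nd1 at −0.67, with adjusted p of 0.00613, 0.000944, 0.00613 and 0.0093 by edgeR. Number 3 was thus at 0.493 times number 1 for mt-Nd5 and at 0.627 times for mt-Nd1, the ends of the called mRNA genes. mt-Co3 differed by −0.41 (adjusted p = 0.826 by edgeR, 0.0436 by DESeq2), and mt-Nd3 by 0.01 (adjusted p = 0.9999 by edgeR). Number 2 lay between the others, with a median over the mRNA genes of −0.31 from number 1, beside −0.88 for number 3 and 0.0041 for number 3 over all genes tested.

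mt-Te, the minus-strand gene next to mt-Nd6, was at 141, 108 and 74.5 in Control and 118, 105 and 70.6 in Prmt1-null libraries. mt-Tl1, which lies between mt-Rnr2 and mt-Nd1, was at 84.9, 67.5 and 54.6 in Control and 81.5, 80.6 and 54.2 in Prmt1-null libraries. Within each genotype, both had the same order of libraries as the mRNA next to them. For the minus-strand genes mt-Te and mt-Nd6, reads of the plus-strand precursor cannot be told apart, since the strand setting of the counting is not given. The log2 differences of number 3 from number 1 were −0.83 for mt-Te (adjusted p = 0.000944 by edgeR) and −0.61 for mt-Tl1 (adjusted p = 0.0363 by edgeR). The 4 genes of the mt-Ta to mt-Ty cluster lay between −0.08 and −0.04, and mt-Rnr1 and mt-Rnr2 at −0.31 and −0.20, with none of these called.

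**Figure D5:**
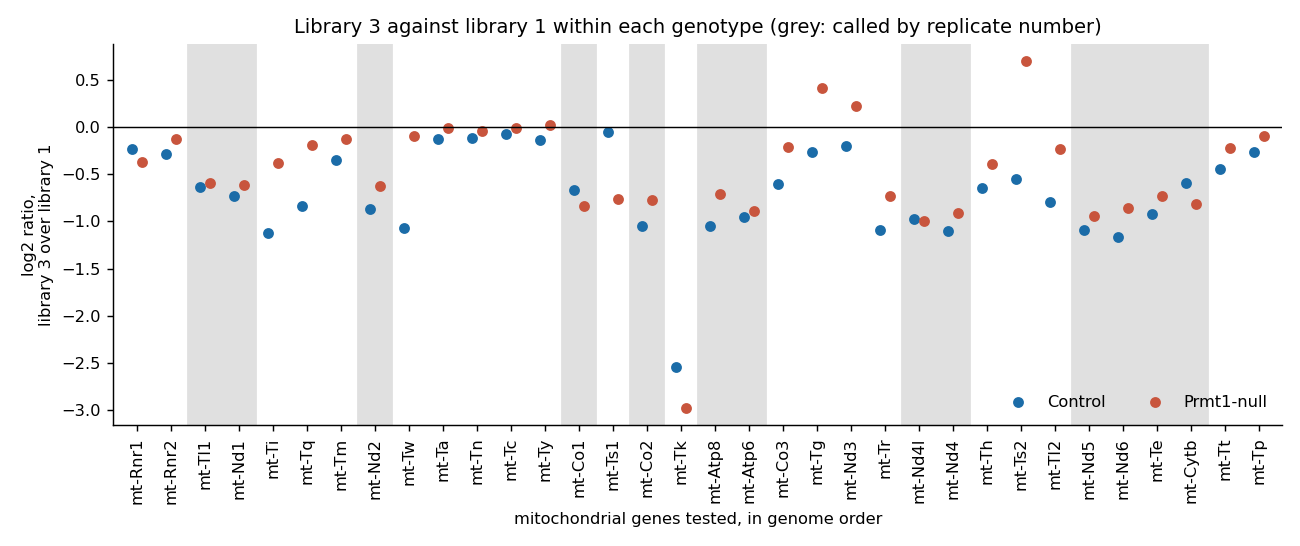
Log2 ratio of library 3 over library 1 within Control (blue) and within Prmt1-null (red) for the 34 tested mitochondrial genes in genome order, with the 13 genes called by replicate number on grey. In each called gene both points lie at or under −0.59, while the points of mt-Ta, mt-Tn, mt-Tc and mt-Ty lie between −0.14 and 0.02.

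The members were also set against the mitochondrial mRNA total of their own library. As a share of all counts that total was lowest in the libraries numbered 3, so this scale raised the median difference of number 3 from number 1 over all genes tested to 0.82 on the log2 scale, and 69.1% of all genes were called by replicate number. The 10 members called on it were mt-Nd3 at 0.83, mt-Co3 at 0.41, mt-Rnr1 at 0.50, mt-Rnr2 at 0.61, mt-Tg at 0.90, mt-Tp at 0.63 and the cluster of mt-Ta, mt-Tn, mt-Tc and mt-Ty at 0.74 to 0.77. Relative to the shift of all genes, mt-Nd3 and the cluster lay near it and mt-Co3 well under it. A call on this scale shows a change relative to the mitochondrial mRNA total, and its direction is that of the shift. mt-Nd3 made 2.04% of mitochondrial mRNA counts in Control 1 and 3.17% in Control 3, and 1.94% in Prmt1-null 1 and 3.91% in Prmt1-null 3. mt-Nd5 made 16.8% in Control 1 and 14.1% in Control 3, and 15.1% in Prmt1-null 1 and 13.6% in Prmt1-null 3.

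Other measures of the libraries were set beside this pattern. The totals of the libraries numbered 3, 50478109 and 57928676 counts, lay within the range of the others, and Control 3 came from a female and Prmt1-null 3 from a male. Replication-dependent histone genes summed to 7389, 7706 and 9397 normalized CPM in Control and 6803, 6936 and 7742 in Prmt1-null libraries. Within each genotype they were highest in the library numbered 3. Rmrp, the RNA component of RNase MRP, was at 817, 549 and 497 in Control and 712, 671 and 481 in Prmt1-null libraries (adjusted p = 0.12 by edgeR for the replicate number). Rn7sk, the 7SK RNA, was at 13848, 14111 and 13739 in Control and 14248, 14832 and 11398 in Prmt1-null libraries, lowest in number 3 of each genotype (adjusted p = 0.9999 by edgeR for the replicate number). The 7 called genes that are neither mitochondrial nor copies were the histone gene Hist2h2bb and Gm20628, which overlaps it on the other strand, both higher in number 3, and the small nuclear or nucleolar RNA genes Gm24265, Gm24407, Gm24497, Gm25939 and Snora73b, all lower in number 3 than in number 1. The summed B cell markers of the libraries numbered 3, 6323 and 6340, lay within the range of the other 4, 5972 to 6652. The part of these measures in the mitochondrial levels was not tested.

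The nuclear genes that maintain, transcribe, process and translate the mitochondrial genome were counted as lists. Of 99 genes listed, 98 were in the table and tested, and edgeR called none in either direction by genotype or by replicate number. At an unadjusted p under 0.05 by genotype, 8 of the 98 were higher and 6 lower in Prmt1-null libraries, beside 6.5% and 7% of all genes tested, and DESeq2 called 3 of the 98, beside 4.08% of all genes tested. These shares were near those of all genes. Their median log2 fold change was 0.01, and their median difference of number 3 from number 1 was 0.01.

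By role, the 12 genes of mtDNA maintenance had a median log2 fold change of −0.11, the 9 of transcription 0.03, the 21 of RNA processing and decay 0.07, the 21 of tRNA and rRNA modification 0.01, the 21 aminoacyl-tRNA synthetases −0.01 and the 14 translation factors 0.08. Tufm, the mitochondrial elongation factor Tu, was at 15.9, 15.8 and 17.1 in Control and 21.2, 20.8 and 20.3 in Prmt1-null libraries (log2 fold change 0.35, SE 0.098, adjusted p = 0.109). Tk2, the mitochondrial thymidine kinase, was at 11.4, 12.4 and 13.1 in Control and 9.38, 8.35 and 9.92 in Prmt1-null libraries (log2 fold change −0.41, SE 0.12, adjusted p = 0.129). Neither passed the threshold over all genes by edgeR. In both genes the genotypes did not overlap. Without overlap, 13 of the 98 genes were higher and 7 lower in Prmt1-null libraries, beside 9.95% and 9.92% of all genes tested.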

How the data were processed

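RNA-seq of 6 iGB libraries was analysed from the deposited raw counts per gene. According to the methods and the submitters' notes, the authors trimmed reads with Trimmomatic 0.32, aligned them to mm10 (GRCm38) with STAR 2.3.0e, and counted primary alignments to at most 2 locations over exons with featureCounts 1.4.4 and Ensembl genes. The strand setting is not given in the sources used here. Groups and replicate numbers came from the sample titles.

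Counts were tested with edgeR 4.0.16 in R 4.3.3 (glmQLFit and glmQLFTest, filterByExpr with a minimum count of 10, TMM factors, Benjamini-Hochberg adjustment over all 18268 genes tested) for genotype, and for replicate number with genotype as covariate. As in the study, chromosome Y genes were left out (398). Standard errors are the log2 fold change divided by the root of F. Scripts were tested on simulated counts. The depth of 45343250 to 62774232 counts per library makes counting error small for all but the lowest tRNA genes, and it covers counting error only. Named genes are the mRNA and rRNA genes, the tRNA genes with the 4 highest and 4 lowest mean counts and those called, untested tRNA genes, Prmt1, the 3 nuclear genes of smallest p (1 is not reported here), and counted copies. mt-Ta, mt-Ty, mt-Tw, mt-Tg, mt-Tp and the other genes called by replicate number were named after their values were seen. The members and lists were chosen with earlier results of these data known. Alternatives used DESeq2 1.42.0, limma 3.58.1, other scalings and filters, sex or replicate number as covariates, and fewer libraries. Coordinates and sequences are from GENCODE M21 (GRCm38), which held 37607 of the table's IDs, and shared stretches are exact matches of 50 bases on either strand. Of the 11 listed nuclear copies 5 were in the table, and 2 of these, Gm15500 and Gm11361, had no such match and were replaced by the matching genes.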

Additional observations from a re-analysis of the deposited data

How the results depend on the processing

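The number of members called lower by genotype, 2, stayed at 2 with limma-voom, DESeq2 size factors, total count scaling, nuclear genes as the scale, chromosome Y genes kept and sex as covariate. It was 4 with the DESeq2 Wald test and with no filter on low counts, where mt-Co2 was among them (−0.27, adjusted p = 0.00734 by edgeR), and 0 when scaled to the mitochondrial mRNA total or, in a fit chosen after seeing the data, with both libraries numbered 3 left out. The fold changes of mt-Tn and mt-Tc were −0.34 and −0.30 on the first and −0.35 and −0.28 in the second. On the mitochondrial mRNA scale Prmt1 itself was at an adjusted p of 0.589 by edgeR, so that count says nothing of these members. Leaving out 1 library gave 0 to 2. The number of all genes called by genotype was 218 in the main fit, 746 with the DESeq2 Wald test and 710 with no filter on low counts. With 1 library left out it ran from 31 without Prmt1-null 2 to 350 without Control 3. DESeq2 gave no adjusted p for 5 members. Over all genes the replicate numbers did not pair the libraries. Deviations from the group means correlated at −0.0747, 0.0445 and −0.0775 for same-numbered libraries, and only Control 2 and Prmt1-null 2 correlated best with their own number. In 12 of the 13 mitochondrial mRNA genes, though, both libraries numbered 3 lay lowest. The replicate block left 1 call, mt-Tn (adjusted p = 0.0414 by edgeR), and mt-Tc was at −0.29 (adjusted p = 0.0668 by edgeR). Nuclear genes of mitochondrial gene expression called by genotype were 3 with DESeq2 and 2 with no filter. The median log2 fold change of tRNA genes ran from −0.29 without Control 3 to 0.10 without Control 1. Members called by replicate number were 13, 8 with no genotype term and 13 to 16 under the other alternatives except scaling to the mitochondrial mRNA total. That scaling called 10, 0 of them among the 13 and all higher in number 3 than in number 1. All genes called by replicate number were 24 in the main fit, 43 with the DESeq2 likelihood ratio test and 125 with no filter on low counts. Shares of counts moved by less than 1 SD under each denominator and with copies added, including the matched copies added after seeing the data.

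Single genotype log2 fold changes, none called, changed sign when 1 library was left out. They ran from −0.50 to 0.017 for mt-Co2, −0.31 to 0.20 for mt-Atp8, −0.42 to 0.12 for mt-Atp6, −0.26 to 0.28 for mt-Nd4, −0.33 to 0.20 for mt-Nd5, −0.38 to 0.20 for mt-Nd6, −0.25 to 0.13 for mt-Rnr1, −0.32 to 0.10 for mt-Rnr2, −0.14 to 0.22 for mt-Nd1, −0.16 to 0.28 for mt-Nd2, −0.11 to 0.27 for mt-Co1 and −0.21 to 0.27 for mt-Nd4l. mt-Nd4l also turned to −0.0077 under total count scaling, −0.0049 under mitochondrial mRNA scaling and −0.00035 with sex, and mt-Nd3 to −0.0090 with both libraries numbered 3 left out. Differences of number 3 from number 1 ran, without 1 library, from −0.57 to 0.10 for mt-Rnr2, −0.59 to 0.031 for mt-Rnr1 and −0.16 to 0.18 for mt-Nd3. Scaled to the mitochondrial mRNA total they turned to 0.14 for mt-Nd1, 0.065 for mt-Nd2, 0.065 for mt-Co1, 0.41 for mt-Co3, 0.11 for mt-Cytb, 0.50 for mt-Rnr1, 0.61 for mt-Rnr2 and 0.20 for mt-Tl1. That scale is itself lowest in number 3. The cause of the other changes was not tested.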
